A study of Mus musculus with 8 samples.

Results

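The genes described here are 9 genes of the killing machinery of lymphocytes: the granzymes Gzma, Gzmb, Gzmc and Gzmk, the perforin gene Prf1, the granule membrane gene Nkg7, the granzyme inhibitor Serpinb9, and Cd8a and Cd8b1, the chains of the CD8 coreceptor. They were taken by symbol from a table of 24426 genes, and were chosen with earlier results of these data known. The table came from RNA sequencing of 8 libraries of mouse C57BL/6J Th17 cells, the interleukin 17-producing T helper cells, which form 4 groups with 2 duplicates in each. Of these groups, 2 were transduced, with a control vector or with miR-96, and 2 were labelled as not transduced and had the genotypes miR-183C+/+ (wild type) or miR-183C-/- (knockout), where miR-183C is the cluster of miR-183, miR-96 and miR-182. The labels' protocols give all groups the Th17(23) culture condition, a harvest between day 4 and day 5 and a sort for GFP-positive cells. The sources used here do not give how untransduced cells came to be GFP-positive, the age or sex of the animals, the number of animals per library, or the promoter of the vector. The duplicates are not stated to come from separate animals or cultures, so each p-value below measures only the spread between these libraries, which may be technical.

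Cytotoxic lymphocytes store granzymes, a family of serine proteases, in secretory granules on a proteoglycan matrix. On contact with a target cell the granules fuse with the plasma membrane, perforin opens pores, and granzymes enter the target and cleave proteins that trigger its death. CD8 T cells and natural killer cells are the main users of this route, but activated CD4 T cells also transcribe granzyme B, and pathogenic or Th1-like T helper cells can take up part of the program. Serpinb9 protects the killing cell from its own granzyme B. MicroRNAs such as those of the miR-183 cluster pair through their seed, bases 2 to 8, with sites mostly in the 3′ untranslated regions of messenger RNAs and lower their levels.

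The microRNAs manipulated in the study are shown first, since their targets mostly carry matches to the seeds (capitals). Mature sequences are from RefSeq on GRCm38.p6, where all 3 lie on the minus strand of chromosome 6. The 3 seeds are alike but no pair of them is identical.
mmu-miR-96-5p: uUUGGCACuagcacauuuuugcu
mmu-miR-182-5p: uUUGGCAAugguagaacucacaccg
mmu-miR-183-5p: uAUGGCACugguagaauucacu
Only 1 of the 9 genes, Serpinb9, had a 7-base match to any of these seeds in its longest GENCODE 3′ untranslated region. That match was to miR-183, and is shown with 10 bases on either side and the match in capitals. Among 19578 genes with such a region, 9% had a match to the miR-96 seed, 12.1% to miR-182, 10% to miR-183 and 25.6% to any of the 3. No match was found in the granzyme, perforin, Nkg7 or CD8 genes, whose regions ran from 67 bases in Gzma to 2306 in Cd8a.
Serpinb9 site for miR-183: gaaaacatcaGTGCCATgctgtgatct

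Promoters are shown for Gzma, Gzmb, Gzmc and Prf1, the 3 best measured granzymes and perforin, because these genes differ in how far their levels moved. Each run holds 250 bases before and 50 after the start site, from RefSeq on GRCm38.p6, where 8 of the 9 genes had an entry. Capitals mark matches, on either strand, to TGTGGT (bound by Runx factors), GGTGTGA (T-box factors such as T-bet and Eomes), TTCNNNGAA (STAT factors), TGANTCA (AP-1) and TGACGTCA (CREB and ATF factors).
Gzma promoter, chr13:113100932-113101231, minus strand: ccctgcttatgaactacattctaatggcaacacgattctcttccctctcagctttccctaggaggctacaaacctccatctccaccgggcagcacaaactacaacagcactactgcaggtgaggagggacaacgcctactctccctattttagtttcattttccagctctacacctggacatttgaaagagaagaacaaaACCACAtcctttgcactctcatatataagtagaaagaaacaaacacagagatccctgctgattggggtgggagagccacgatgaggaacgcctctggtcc
Gzmb promoter, chr14:56262285-56262584, minus strand: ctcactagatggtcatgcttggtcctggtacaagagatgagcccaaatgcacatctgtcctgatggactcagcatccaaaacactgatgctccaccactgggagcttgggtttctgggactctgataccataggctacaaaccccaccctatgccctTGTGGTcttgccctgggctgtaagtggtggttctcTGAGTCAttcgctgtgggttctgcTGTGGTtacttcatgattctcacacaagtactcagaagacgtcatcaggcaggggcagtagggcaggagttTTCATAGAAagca
Gzmc promoter, chr14:56234608-56234907, minus strand: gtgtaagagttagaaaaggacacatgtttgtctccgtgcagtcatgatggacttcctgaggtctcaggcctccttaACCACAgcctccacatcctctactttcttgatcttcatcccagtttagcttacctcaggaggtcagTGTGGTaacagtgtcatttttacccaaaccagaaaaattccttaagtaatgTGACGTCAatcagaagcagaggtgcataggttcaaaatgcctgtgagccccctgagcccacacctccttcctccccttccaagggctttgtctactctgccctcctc
Prf1 promoter, chr10:61297586-61297885, plus strand: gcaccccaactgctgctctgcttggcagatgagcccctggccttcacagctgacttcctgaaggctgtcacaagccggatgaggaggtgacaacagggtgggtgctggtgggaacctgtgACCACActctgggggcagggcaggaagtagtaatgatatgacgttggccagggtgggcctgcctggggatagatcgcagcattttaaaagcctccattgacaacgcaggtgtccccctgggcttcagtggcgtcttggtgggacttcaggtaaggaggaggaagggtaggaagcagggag
The Runx letters occurred in 6 of the 8 promoters (Gzma, Gzmb, Gzmc, Prf1, Nkg7 and Serpinb9) and in 16.8% of all 32851 mouse promoters of that length. Counted from the start site, the match began at position -50 in Gzma and at -130 in Prf1, and Gzmb held 2, at -93 and -34. The T-box letters were found in Gzmk and Nkg7 (3.98% of all promoters) and the STAT letters in Gzmb and Nkg7 (8.3%). Gzmb alone of the 8 held the AP-1 letters (7.81%), at position -58, and Gzmc alone the CREB letters (1.79%), at -57. The 5 motifs do not overlap each other in the runs shown. A match describes the letters only, and says nothing of whether a factor was bound.

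Total estimated counts per library ran from 7142429 to 12452659. Mir96 had 7 and 2 counts in the miR-96 libraries and 0 in the other 6, and Mir182 and Mir183 had 0 in all 8. These counts do not check the labels, because libraries of polyadenylated RNA do not measure mature microRNAs. In knockout library 1, 56.4% of the detected genes had counts that were not whole numbers, against 6.23% to 7.39% in the other 7 libraries. Y-linked genes summed to 1.02 and 0.0967 CPM (counts scaled to a common library size) in the control vector libraries and to between 111 and 330 in the other 6. Xist, the non-coding RNA that coats the inactive X chromosome, was at 1220 and 390 CPM in wild type, 0 and 144 in the knockout, 1220 and 1480 under the control vector and 1080 and 166 under miR-96. The sex of the source animals and the vector thus cannot be told apart in the comparison of the transduced cells. In the genotypes both knockout libraries had less Xist than both wild type libraries, while the Y-linked sums overlapped. The part of the animals' sex in the knockout comparison was not tested. A level set beside that of another gene is also divided by the kilobases of its exons. A gene was called when its adjusted p (edgeR's quasi-likelihood test, Benjamini-Hochberg over the 11851 genes tested) was under 0.05.

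Gzmb, which encodes granzyme B, the protease that cleaves caspases in target cells, was the most abundant of the 9 transcripts in all 8 libraries. It lies on chromosome 14 (56258838 to 56262260, minus strand). Its mean level per kilobase was 457 CPM in wild type, 403 in the knockout, 266 under the control vector and 246 under miR-96. The group means of Nkg7 lay between 11.0 and 27.5 CPM per kilobase and those of Gzma between 0.318 and 20.2. Those of the other tested members lay between 0.128 (Cd8a) and 8.02 (Serpinb9) CPM per kilobase. Srgn, the proteoglycan that holds granzymes in the granule matrix, was in the range of Gzmb, at 303 to 475 CPM per kilobase. Transcripts of Gzmb and of the storage matrix were thus present in every condition, and those of the other members were scarcer.

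Gzmb stood at 641 and 672 CPM in wild type, 414 and 744 in the knockout, 195 and 568 under the control vector and 319 and 387 under miR-96. The groups overlapped in both comparisons, and the control vector and knockout duplicates lay far apart. With miR-96 the log2 fold change was -0.11 (SE 0.43, 95% interval -1.09 to 0.86, edgeR adjusted p = 0.962). For the knockout it was -0.18 (SE 0.43, 95% interval -1.16 to 0.79, edgeR adjusted p = 0.793). The intervals are wide on the log2 scale, so a lack of change is not shown. The sign turned without control vector library 2 (log2 fold change 0.87) or miR-96 library 1 (0.02) in the transduced cells, and without knockout library 1 (0.20) in the genotypes.

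Gzma encodes granzyme A, a protease of different cleavage preference, and lies on chromosome 13 (113093825 to 113100981, minus strand). It was at 11.0 and 29.7 CPM in wild type (90 and 300 counts), 0 and 0.715 in the knockout (0 and 6 counts), 0.157 and 0.483 under the control vector (2 and 5 counts) and 11.6 and 13.2 under miR-96 (127 and 106 counts). The miR-96 and wild type libraries were all high, the control vector and knockout libraries all near 0, and neither comparison overlapped. Gzma fell in the knockout by 5.71 on the log2 scale (SE 0.82, 95% interval -7.58 to -3.85, edgeR adjusted p = 0.0246), from 20.3 ± 13.3 to 0.357 ± 0.505 CPM (SD, n = 2). As a ratio of counts, wild type was 56.1 times the knockout (exact 95% interval 25.5 to 154, for counting error only). With miR-96 its mean was 12.4 ± 1.10 against 0.320 ± 0.231 CPM with the control vector (SD, n = 2), a count ratio of 40.5 (exact 95% interval 19.4 to 102). That difference, 5.28 on the log2 scale (SE 0.81), was not called (edgeR adjusted p = 0.0772).

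The Gzma calls depended on single libraries. The knockout call was lost without knockout library 1 (log2 fold change -4.79, edgeR adjusted p = 0.209) and without wild type library 2 (-4.83, edgeR adjusted p = 0.192), and over all alternatives the adjusted p ran from 6.14e-28 to 0.209. In the transduced cells Gzma was called without miR-96 library 1 (log2 fold change 5.38, edgeR adjusted p = 0.0436) and without knockout library 2 (5.28, edgeR adjusted p = 0.0488). It was also called there by DESeq2 (adjusted p = 3e-09), and the range over all alternatives was 1.38e-24 to 0.315. Gzma reached the filter of about 10 counts only in the miR-96 and wild type libraries, so it could be tested only through the groups in which it was high. In bulk RNA, fewer cells with the transcript and less transcript per cell cannot be told apart.

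Gzmc encodes a granzyme found mainly in strongly activated killer cells and lies beside Gzmb on chromosome 14 (56231441 to 56234656, minus strand). Its levels were 4.14 and 8.52 CPM in wild type, 1.89 and 2.26 in the knockout, 1.10 and 2.51 under the control vector and 4.21 and 4.85 under miR-96. Both high groups lay wholly above their controls or counterparts, at lower counts than Gzmb by far. The log2 fold change was 1.34 with miR-96 (SE 0.53, edgeR adjusted p = 0.542) and -1.61 in the knockout (SE 0.53, edgeR adjusted p = 0.0720), neither of them called. Gzmc shares runs of up to 68 identical bases with Gzme and 49 with Gzmb, and some of its deposited counts are not whole, so reads may have been split between paralogs.

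Gzmk, a granzyme of memory-like T cells next to Gzma on chromosome 13 (113171608 to 113225908, minus strand), had 2 counts in each wild type library and 0 in the other 6. It was too scarce to be tested. A count of 0 allows up to 0.235 to 0.406 CPM, depending on the library. With 3 counts put in place of the knockout's 0, wild type was 1.15-fold higher, a value that is not a lower bound. The exact 95% interval of the knockout to wild type ratio, 0 to 1.76, included no difference.

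Gzmd, Gzmg and Gzme of the chromosome 14 cluster had counts only in the groups where Gzma was high. Gzmd, a cluster member next to Gzme, was at 1.37 and 1.87 CPM under miR-96 and at 1.34 and 2.97 in the wild type libraries, and had 0 counts in all 4 control vector and knockout libraries. Against a floor of 3 counts over a group it was 12.2-fold higher with miR-96 (edgeR adjusted p = 0.296, not called). In the knockout it was 11.8-fold lower against the same floor (edgeR adjusted p = 0.0306, called). These floor values are not lower bounds, and the exact intervals of the count ratios reached down to 9.31-fold and 9.17-fold. Like Gzma, Gzmd passed the filter only through the miR-96 and wild type libraries. Gzmd lost that call without wild type library 1 (edgeR adjusted p = 0.115), knockout library 1 (0.228) or wild type library 2 (0.198), and its adjusted p over all alternatives ran from 0.00015 to 0.228. Gzmg was at 0.183 and 0.871 CPM under miR-96, at 0.487 and 1.39 in the wild type libraries and at 0 in the other 4. On that floor it was 3.65-fold higher with miR-96 and 5.18-fold lower in the knockout, with exact intervals reaching down to 2.4-fold and 3.79-fold. Gzme had 1 count in each miR-96 library, 6 and 10 in wild type and 0 elsewhere. On the same floor it was 4.6-fold lower in the knockout, with an exact interval reaching down to 3.33-fold. Gzmd and Gzmg share a run of 101 identical bases and Gzmd and Gzme one of 96, so the counts of these 3 genes are uncertain. Gzmf had 3 to 7 counts per group, Gzmm 4 to 15, and Gzmn had 0 in every library.

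**Figure D1:**
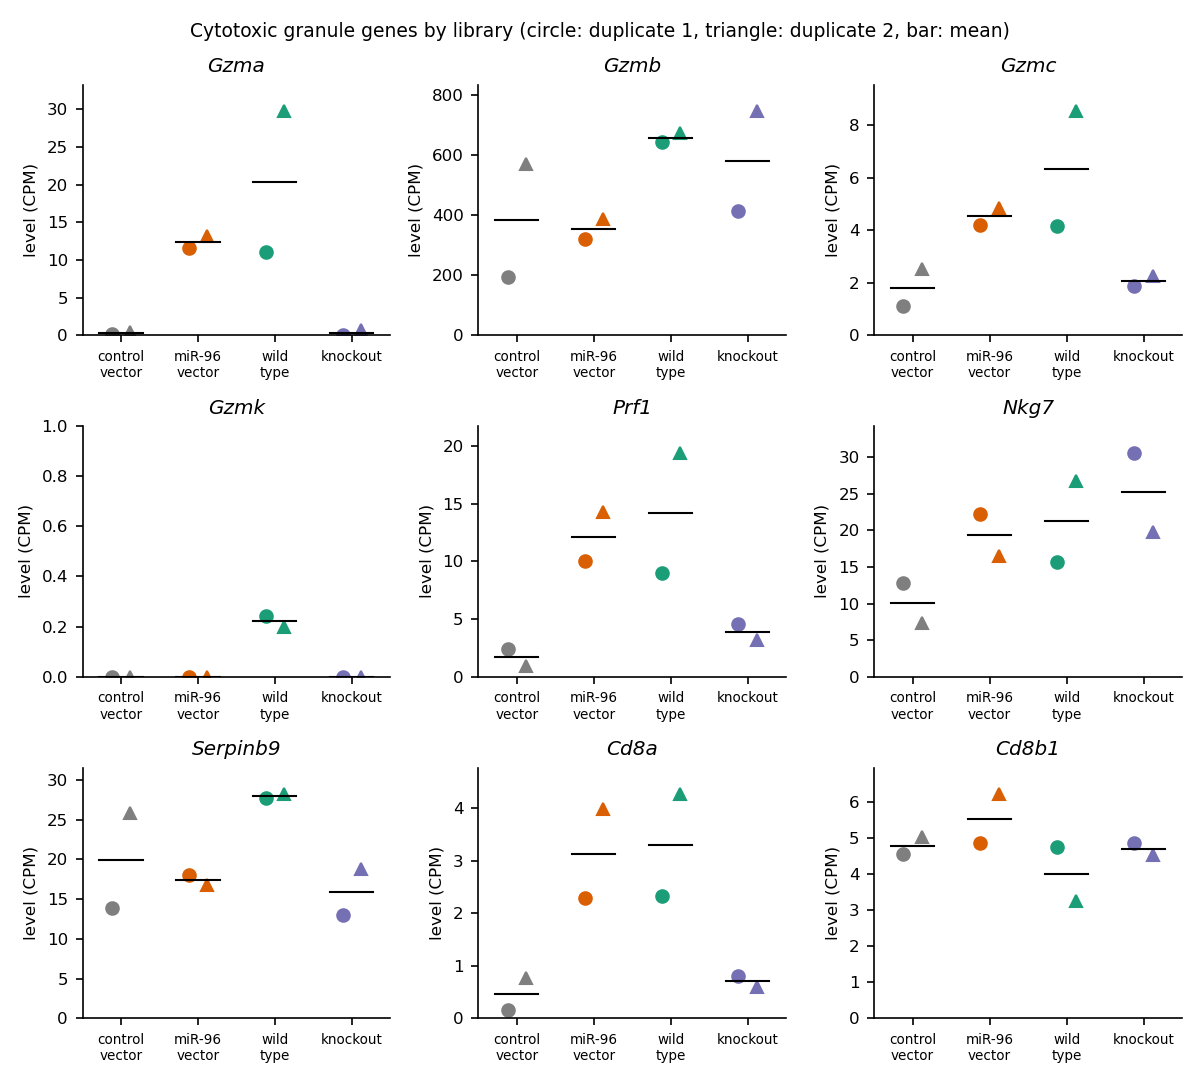
Level of each of the 9 genes in CPM (vertical axis, from 0) in the 4 groups. Circles are duplicate 1, triangles duplicate 2 and bars the group mean. Gzma, Gzmc, Prf1 and Cd8a are high in the miR-96 and wild type libraries and low in the control vector and knockout libraries, whereas Gzmb and Cd8b1 overlap between groups.

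The makeup of the granzyme transcripts is given next as shares of counts, not scaled by transcript length and without a test. Gzmb made up 99.0% and 99.3% of all granzyme counts with the control vector and 99.5% and 99.5% in the knockout. Its shares were 94.6% and 94.7% with miR-96, and 97.0% and 93.8% in the wild type libraries. The exact binomial 95% intervals ran from 93.3% to 97.4% over the miR-96 and wild type libraries and from 98.5% to 99.7% over the other 4. The granzymes other than Gzmb summed to 20.0 and 44.1 CPM in wild type, 2.03 and 3.69 in the knockout, 1.96 and 4.25 under the control vector and 18.1 and 21.5 under miR-96. Both summary measures separated the miR-96 and wild type libraries from the control vector and knockout libraries, and in the former Gzma made up most of the sum.

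**Figure D2:**
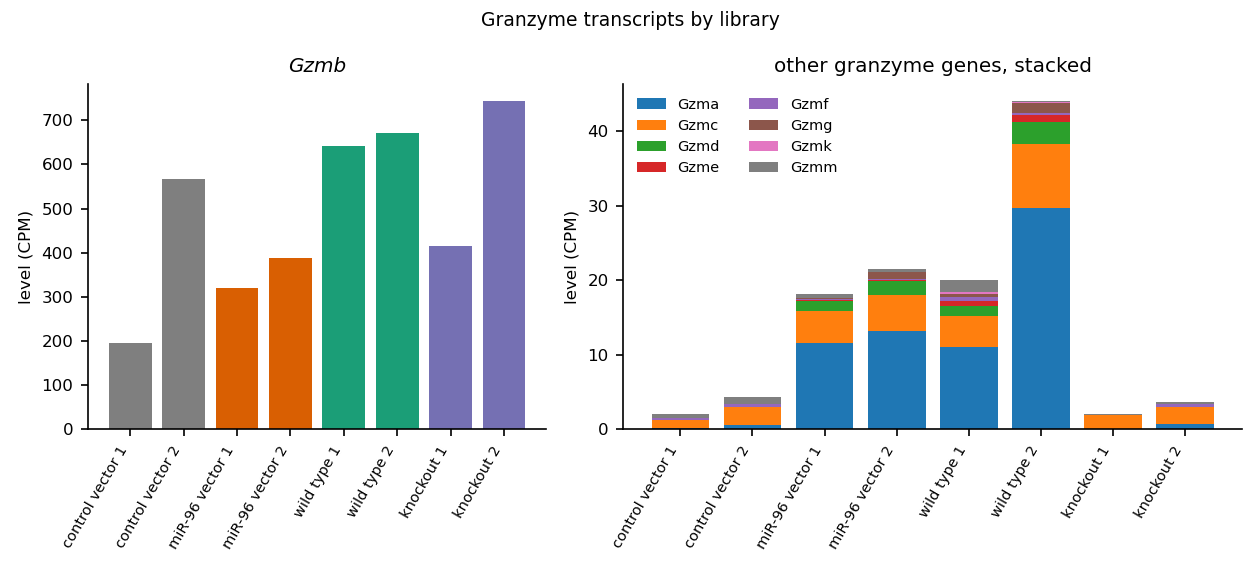
Granzyme levels in CPM (vertical axes, from 0) in each of the 8 libraries. The left panel shows Gzmb, from 195 to 744 CPM, and the right panel stacks the other granzyme genes, which sum to 1.96 to 4.25 CPM in the control vector and knockout libraries and to 18.1 to 44.1 CPM in the miR-96 and wild type libraries.

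Prf1, on chromosome 10 (61297833 to 61304680, plus strand), encodes perforin, without which granzymes do not enter the target. It stood at 9.02 and 19.4 CPM in wild type, 4.6 and 3.22 in the knockout, 2.43 and 0.967 under the control vector and 9.99 and 14.3 under miR-96. The groups did not overlap in either comparison. Prf1 fell in the knockout from 14.2 ± 7.36 to 3.91 ± 0.978 CPM (SD, n = 2), by 1.87 on the log2 scale (SE 0.49, 95% interval -2.99 to -0.75, edgeR adjusted p = 0.0419). With miR-96 it was at 12.1 ± 3.05 against 1.70 ± 1.04 CPM (SD, n = 2). This difference of 2.80 on the log2 scale (SE 0.52) was not called by edgeR (adjusted p = 0.172) and was called by DESeq2 (adjusted p = 9.85e-05). The range over all alternatives was 3.42e-10 to 0.675 for that comparison.

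The Prf1 call in the knockout was close to the threshold and did not hold without any one of the 4 genotype libraries. Its edgeR adjusted p was 0.111 without wild type library 1, 0.246 without knockout library 1, 0.276 without wild type library 2 and 0.116 without knockout library 2. It ran from 1.17e-05 to 0.276 over all alternatives, with the direction kept in all of them. Relative to Gzmb, Prf1 had 1.41 and 2.89 counts per 100 Gzmb counts in wild type, 1.11 and 0.432 in the knockout, 1.25 and 0.17 under the control vector and 3.13 and 3.70 under miR-96. The ratio separated the groups in both comparisons, by a wide gap in the transduced cells and a narrow one in the genotypes.

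Nkg7 encodes a membrane protein of cytotoxic granules needed for their release and lies on chromosome 7 (43437073 to 43438249, plus strand). Its levels were 15.7 and 26.8 CPM in wild type, 30.6 and 19.8 in the knockout, 12.8 and 7.35 under the control vector and 22.2 and 16.5 under miR-96. It was not low in the knockout, where the libraries overlapped those of wild type, and it was lowest under the control vector. Its log2 fold change was 0.94 with miR-96 (SE 0.36, 95% interval 0.12 to 1.76, edgeR adjusted p = 0.537) and 0.24 in the knockout (SE 0.35, 95% interval -0.56 to 1.04, edgeR adjusted p = 0.663). The sign in the knockout turned without wild type library 1 (log2 fold change -0.10) or knockout library 1 (-0.09).

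Serpinb9, on chromosome 13 (33003250 to 33017957, plus strand), encodes the serpin that inhibits granzyme B. It stood at 27.8 and 28.2 CPM in wild type, 13.0 and 18.8 in the knockout, 13.9 and 25.9 under the control vector and 18.0 and 16.8 under miR-96. The transduced groups overlapped, and both knockout libraries lay below both wild type libraries. Its log2 fold change was -0.19 with miR-96 (SE 0.30, edgeR adjusted p = 0.907), a sign that turned without control vector library 2 (0.34), and -0.81 in the knockout (SE 0.30, edgeR adjusted p = 0.0950). Serpinb9, the member with the miR-183 site shown above, was thus not higher in the cells without miR-183, and neither difference was called.

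The chains of the CD8 coreceptor, which form the surface dimer of CD8 T cells and sit side by side on chromosome 6, did not vary together over the libraries. Cd8a (71373427 to 71379173, plus strand) was at 2.32 and 4.26 CPM in wild type, 0.812 and 0.596 in the knockout, 0.157 and 0.773 under the control vector and 2.29 and 3.98 under miR-96. Cd8b1 (71322788 to 71337494, plus strand) was at 4.75 and 3.27 CPM in wild type, 4.87 and 4.53 in the knockout, 4.55 and 5.03 under the control vector and 4.86 and 6.22 under miR-96. Cd8a was high in the miR-96 and wild type libraries without overlap, while Cd8b1 lay between 3.27 and 6.22 CPM in all 8 and overlapped in both comparisons.

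Neither CD8 chain was called. The log2 fold change of Cd8a was 2.76 with miR-96 (SE 0.75, edgeR adjusted p = 0.386) and -2.22 in the knockout (SE 0.74, edgeR adjusted p = 0.0730), and that of Cd8b1 was 0.21 (SE 0.35, 95% interval -0.58 to 0.99) and 0.23 (SE 0.36, 95% interval -0.58 to 1.04). The knockout sign of Cd8b1 turned without wild type library 2 (log2 fold change -0.02). Like Gzma, Cd8a passed the filter only through the groups where it was high. Cd4 stood at 350 to 579 CPM in the 8 libraries. Per kilobase, the group means of Cd8a lay between 0.128 and 0.904 CPM and those of Cd8b1 between 2.70 and 3.73.

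**Figure D3:**
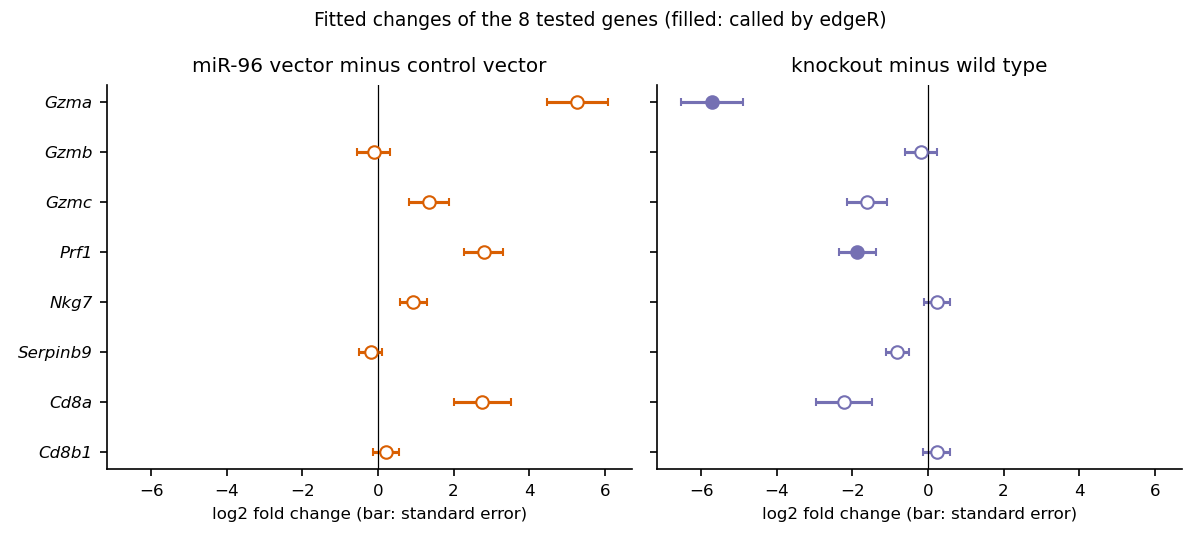
Log2 fold change (horizontal axis) of the 8 tested genes in both comparisons, with bars of 1 standard error. Filled points were called by edgeR. Filled points are Gzma (-5.71) and Prf1 (-1.87) in the knockout, and no member is filled with miR-96, where Gzma is at 5.28.

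Counted together, 0 of the 8 tested members were called with miR-96 by edgeR, 5 had an unadjusted p under 0.05, and DESeq2 called 2. Over all genes 0.110% were called in this comparison (13 of 11851) and 8.7% had an unadjusted p under 0.05. In the knockout 2 of the 8 were called, both lower, where 13.0% of all genes were called in either direction. In 5 of the 8 the miR-96 libraries all lay above the control vector libraries, and in 35.9% of all genes the groups did not overlap in one direction or the other. In 5 of the 8 the knockout libraries all lay below wild type, where 69.8% of all genes did not overlap, so that count is not a result about these genes. The median log2 fold change of the 8 was 1.14 with miR-96 and -1.21 in the knockout, beside 0.01 and -0.01 over all genes. Gzma and Cd8a could be tested only through the groups where they were high, which these counts and medians include.

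The difference between the comparisons, that is the log2 fold change with miR-96 minus that in the knockout, was called for 4 of the 8 members, where 9.03% of all genes were called. It was 10.99 for Gzma (SE 1.15, edgeR adjusted p = 0.00582), 4.67 for Prf1 (SE 0.72, 0.0146), 4.98 for Cd8a (SE 1.05, 0.0285) and 2.94 for Gzmc (SE 0.75, 0.0438). Gzma and Cd8a could be tested only through the miR-96 and wild type groups, where they were high, so their differences carry that selection. The other 4 were not called, with 0.07 for Gzmb, 0.70 for Nkg7 (edgeR adjusted p = 0.385), 0.62 for Serpinb9 (0.353) and -0.03 for Cd8b1. The Gzma difference was called under every alternative run. That of Prf1 was lost without wild type library 2 (edgeR adjusted p = 0.0929) or knockout library 1 (0.0644), within a range of 8.82e-16 to 0.0929. That of Cd8a was lost without control vector library 1 (0.074), miR-96 library 2 (0.0602), wild type library 1 (0.067), knockout library 1 (0.112) and wild type library 2 (0.148), within 2.91e-05 to 0.148. That of Gzmc was lost without any one library other than control vector library 2, with adjusted p up to 0.2 within a range from 0.000623.

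Across the 8 libraries Gzma, Gzmc, Prf1 and Cd8a had closely similar patterns, and Gzmb was less like them. As a description over libraries that share these groups, Pearson's r of log2 CPM was 0.93 for Gzma and Gzmc, 0.83 for Gzma and Prf1, 0.91 for Gzma and Cd8a, and 0.96 for Gzmc and Cd8a. For Gzmb it was 0.50 with Gzmc, 0.39 with Cd8a, 0.29 with Gzma, 0.12 with Prf1 and 0.71 with Serpinb9, and for Cd8a and Cd8b1 it was -0.05. Among 9140 genes of sufficient level, the 5 with the pattern most like Gzma were Ikzf2 (r = 0.993), Cxcr6 (0.985), Skil (0.982), Pik3ca (0.978) and Pkn2 (0.977). Ikzf2, which encodes the transcription factor Helios, was at 30.8 and 57.7 CPM in wild type, 1.62 and 4.17 in the knockout, 2.75 and 5.22 under the control vector and 24.9 and 26.5 under miR-96, and Cxcr6 encodes a chemokine receptor of tissue-homing T cells. Those most like Gzmb were F2r, a thrombin receptor (r = 0.961), Ppp6c (0.956), St7 (0.950), Ndufa12 (0.949) and Lair1, an inhibitory receptor (0.943). F2r ran from 37.5 CPM in control vector library 1 to 77.5 in wild type library 1. These genes were picked as the highest of 9140 coefficients over 8 libraries, so the values are a description.

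The counts of called list genes that follow are to be read against all genes tested, of which 0.110% were called with miR-96 and 8.7% had an unadjusted p under 0.05 there, and 13.0% were called in the knockout (6.63% higher and 6.4% lower). Of 12 tested genes of the pore and granule matrix, edgeR called 0 with miR-96 (4 at an unadjusted p under 0.05, 2 by DESeq2) and only Prf1 in the knockout. The matrix proteoglycan gene Srgn was at 880 and 1210 CPM in wild type, 806 and 724 in the knockout, 638 and 691 under the control vector and 843 and 960 under miR-96. Its log2 fold changes were 0.44 (edgeR adjusted p = 0.541) and -0.45 (0.106).

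Of 14 tested genes of granule docking and fusion, edgeR called 0 with miR-96 (2 at an unadjusted p under 0.05, 1 by DESeq2), and Unc13d, which primes granules for release, had a log2 fold change near 0 (-0.02). In the knockout 2 rose and 2 fell of the 14, beside 13.0% of all genes called. Sytl3, a Rab27 effector, was at 19.4 and 34.8 CPM in wild type against 5.95 and 6.07 in the knockout, and fell by 2.17 on the log2 scale (SE 0.36, edgeR adjusted p = 0.0246). Stx11, a syntaxin that granule release in killer cells requires, was at 101 and 137 CPM in wild type against 65.3 and 68.1 in the knockout (log2 fold change -0.83, edgeR adjusted p = 0.0327). Sytl1, another Rab27 effector, rose from 16.1 and 13.4 to 65.1 and 42.0 CPM (1.86, edgeR adjusted p = 0.0248) and Stx4a from 46.1 and 49.2 to 95.8 and 76.0 (0.85, 0.0298). The members of this machinery that changed thus did so in both directions.

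Of 6 tested serpins, edgeR called 0 with miR-96 (0 at an unadjusted p under 0.05, 0 by DESeq2) and in the knockout 1 rose and 1 fell, beside 13.0% of all genes called. Serpinb1a, an inhibitor of neutrophil-type serine proteases, rose from 28.3 and 12.7 to 91.8 and 72.7 CPM (2.01 on the log2 scale, SE 0.49, edgeR adjusted p = 0.0350). Serpina3g, an inhibitor induced in activated T cells, fell from 9.63 and 22.7 to 2.3 and 2.14 CPM (-2.86 on the log2 scale, SE 0.74, edgeR adjusted p = 0.0404). Serpinb9b, a relative of Serpinb9, had 24 counts in wild type and 2 in the knockout, a ratio of 10.4 (exact 95% interval 2.57 to 90.4), and was too scarce to be tested.

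Transcription factors that drive cytotoxic genes in killer lymphocytes were lower in part in the knockout. Of 17, 0 were called with miR-96 by edgeR (5 at an unadjusted p under 0.05, 1 by DESeq2), and the median log2 fold change was 0.28, beside 0.01 over all genes. In the knockout 7 fell and 0 rose, where 13.0% of all genes were called in either direction, with a median of -0.54 beside -0.01 over all genes. Prdm1, which encodes Blimp-1, a driver of terminal effector differentiation, stood at 13.8 and 32.6 CPM in wild type, 2.84 and 1.79 in the knockout, 1.18 and 2.71 under the control vector and 13.3 and 16.2 under miR-96. It fell in the knockout by 3.33 on the log2 scale (SE 0.52, edgeR adjusted p = 0.0246), and its pattern over the groups resembled that of Gzma.

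Tbx21, which encodes T-bet, the T-box factor of Th1 and killer cells, was at 57.3 and 98.8 CPM in wild type, 23.7 and 36.7 in the knockout, 23.3 and 29.0 under the control vector and 54.4 and 51.5 under miR-96. It fell in the knockout by 1.37 on the log2 scale (SE 0.29, edgeR adjusted p = 0.0290). Zeb2, a partner of T-bet in effector cells, fell from 48.5 and 64.5 to 17.4 and 27.5 CPM (log2 fold change -1.33, edgeR adjusted p = 0.0258). Rbpj, the nuclear mediator of Notch, fell as well (-0.95 on the log2 scale, edgeR adjusted p = 0.0261), as did the AP-1 family gene Batf (-0.74, 0.0423). Eomes and Runx3, named after their values were seen, were not called. Eomes, the other T-box factor of killer cells, was at 12.6 and 8.32 CPM in wild type against 0.271 and 5.48 in the knockout, and Runx3, the Runx factor of CD8 T cells, was at 47.6 and 50 CPM in wild type against 90.5 and 63.8 in the knockout (edgeR adjusted p = 0.240 and 0.124).

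**Figure D4:**
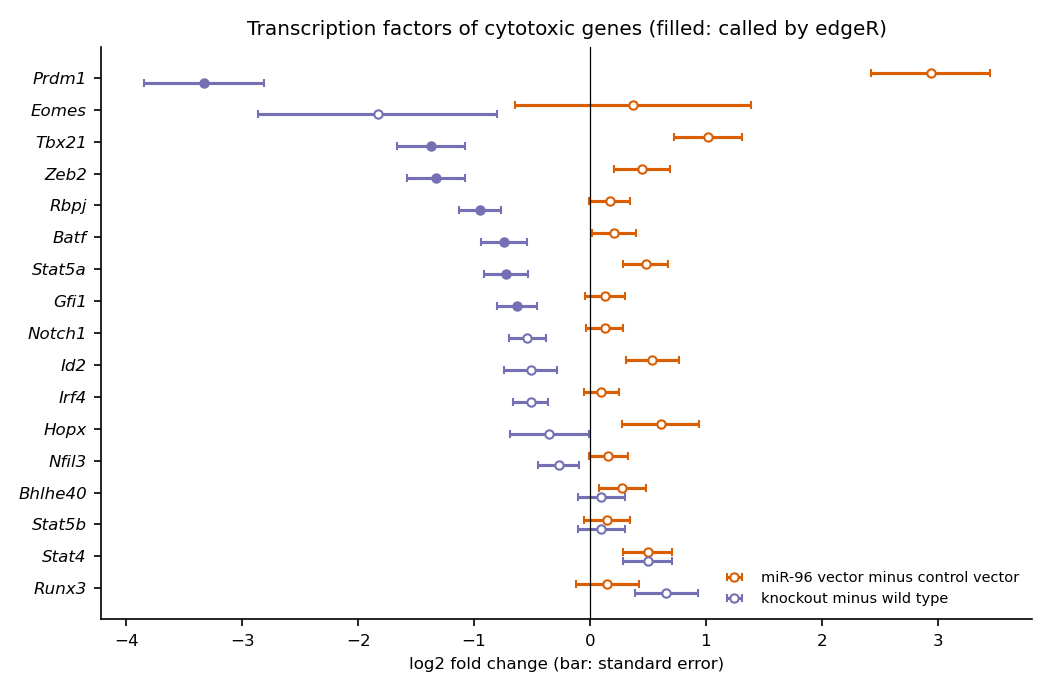
Log2 fold change (horizontal axis) of 17 transcription factors of cytotoxic genes, with bars of 1 standard error, for both comparisons. Filled points were called by edgeR. The 7 filled points, led by Prdm1 at -3.33, are all in the knockout and below 0, and no factor is filled with miR-96.

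Factors known to hold T cells in a less differentiated state went in both directions. Of 10 tested, edgeR called 0 with miR-96 (2 at an unadjusted p under 0.05, 0 by DESeq2). In the knockout 2 rose and 2 fell. Klf2, a factor of quiescence and homing, rose from 9.26 and 5.35 to 31.9 and 23.0 CPM (1.92 on the log2 scale, SE 0.29, edgeR adjusted p = 0.0246), and Tcf7, which encodes TCF-1, from 117 and 90.2 to 222 and 163 CPM (0.89, 0.0470). Bcl6, the repressor opposed to Blimp-1, fell from 18.9 and 23.9 to 8.66 and 11.7 CPM (-1.07, 0.0290), and Bach2 fell from 299 and 314 to 177 and 199 (-0.71, 0.0400). Of 15 receptors upstream of cytotoxic genes, edgeR called 0 with miR-96 (6 at an unadjusted p under 0.05, 3 by DESeq2). In the knockout Il12rb2, a chain of the interleukin 12 receptor, fell (log2 fold change -0.64, edgeR adjusted p = 0.0466). Il2ra and Il2rb, chains of the interleukin 2 receptor and the most abundant of the list, had log2 fold changes of 0.09 and 0.11 with miR-96.

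The marker genes of other cells were examined beside these results, and their part in them was not tested. The 8 B cell markers summed to 75.8 and 156 CPM in wild type, 17 and 18.2 in the knockout, 28.7 and 17.5 under the control vector and 78.7 and 91.8 under miR-96, so their sum was high in the same groups as Gzma. Where 35.9% of all genes did not overlap in one direction or the other, 6 of the 7 tested had both miR-96 libraries above both control vector libraries. The other, Ebf1, was at 26.3 and 14.7 CPM under the control vector, most of those sums. Its group means were 20.5 CPM under the control vector, 21.5 under miR-96, 14.2 in wild type and 9.03 in the knockout. Jchain and Cd79a of this list rose with miR-96 (log2 fold changes 7.67 and 4.07, edgeR adjusted p = 0.00829 and 0.0149), and 5 of 7 tested fell in the knockout, where 6.4% of all genes were called lower. Over the control vector and the knockout libraries, Jchain had 3 and 16 counts, Mzb1 8 and 25, Cd79b 15 and 15 and Ms4a1 2 and 8. Like Gzma, these genes could be tested only through the groups where they were high, which these calls include. The 19 CD8 T cell and natural killer cell markers, which include Cd8a and Cd8b1, summed to 518 and 919 CPM in wild type, 68.8 and 258 in the knockout, 217 and 284 under the control vector and 543 and 428 under miR-96. In wild type library 2, which had the highest sum, Ccl3 stood at 472 and Ccl4 at 300 CPM, chemokine genes that activated T helper cells also express. Of 12 tested, edgeR called 0 with miR-96 (3 at an unadjusted p under 0.05, 0 by DESeq2) and Ccl3, Ccl4 and the receptor gene Klrc1 fell in the knockout (log2 fold changes -2.78, -2.29 and -1.94). Among the receptor genes of the list, named after their values were seen, Klrk1 was high in the same groups as Gzma, at 1.34 and 2.28 CPM in wild type, 0.271 and 0.119 in the knockout, 0.392 and 0 under the control vector and 1.37 and 1.62 under miR-96. Klrg1 had 6 counts in each wild type library, 8 and 3 under miR-96, 0 and 1 in the knockout and 0 in both control vector libraries. Of the 12 tested genes of the list, 6 lay wholly higher under miR-96 than under the control vector, beside 35.9% of all genes that did not overlap. Klrd1, Cd160 and Crtam were among those that overlapped there. Ccl5 lay wholly lower, with means of 9.47 CPM under miR-96 and 15.1 under the control vector. In the knockout 9 of the 12 lay wholly below wild type, and Ccl5 and Cd160 overlapped. There 69.8% of all genes did not overlap, so that count is not a result about these markers. Cd8a and Klrk1, which both counts include, passed the filter on low counts only through the miR-96 and wild type libraries. The natural killer cell receptor genes Klrb1c and Ncr1 had 0 counts in all 8 libraries, and Tyrobp, the adaptor of such receptors, had 0 in the control vector and knockout libraries.

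The CD4 T cell and T cell markers were at 3540 to 4050 CPM in all 8 libraries, while 0 of 11 were called with miR-96 by edgeR (2 at an unadjusted p under 0.05, 0 by DESeq2) and 1 rose and 2 fell in the knockout, beside 13.0% of all genes called. The 8 Th17 markers summed to 785 to 1220 CPM in wild type, 278 to 320 in the knockout, 445 to 698 under the control vector and 1070 to 1480 under miR-96. Of these, edgeR called 0 with miR-96 (7 at an unadjusted p under 0.05, 5 by DESeq2), where 8.7% of all genes had such a p, and 4 of the 8 fell in the knockout, where 6.4% of all genes were called lower, led by Il17a (-3.45 on the log2 scale, edgeR adjusted p = 0.0211). The Th17 sum was thus high in the same groups as Gzma too. Myeloid markers summed to 6.77 to 26.1 CPM. Of 8 gamma delta T cell markers only Sox13, Blk and Cd163l1 entered the sum, which ran from 0.773 to 4.86 CPM, and the receptor genes that define these cells were not analysed here. None of the 5 myeloid and 2 gamma delta genes tested was called in either comparison by edgeR (at an unadjusted p under 0.05, 1 in each list with miR-96 and 0 in the knockout) or by DESeq2.

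**Figure D5:**
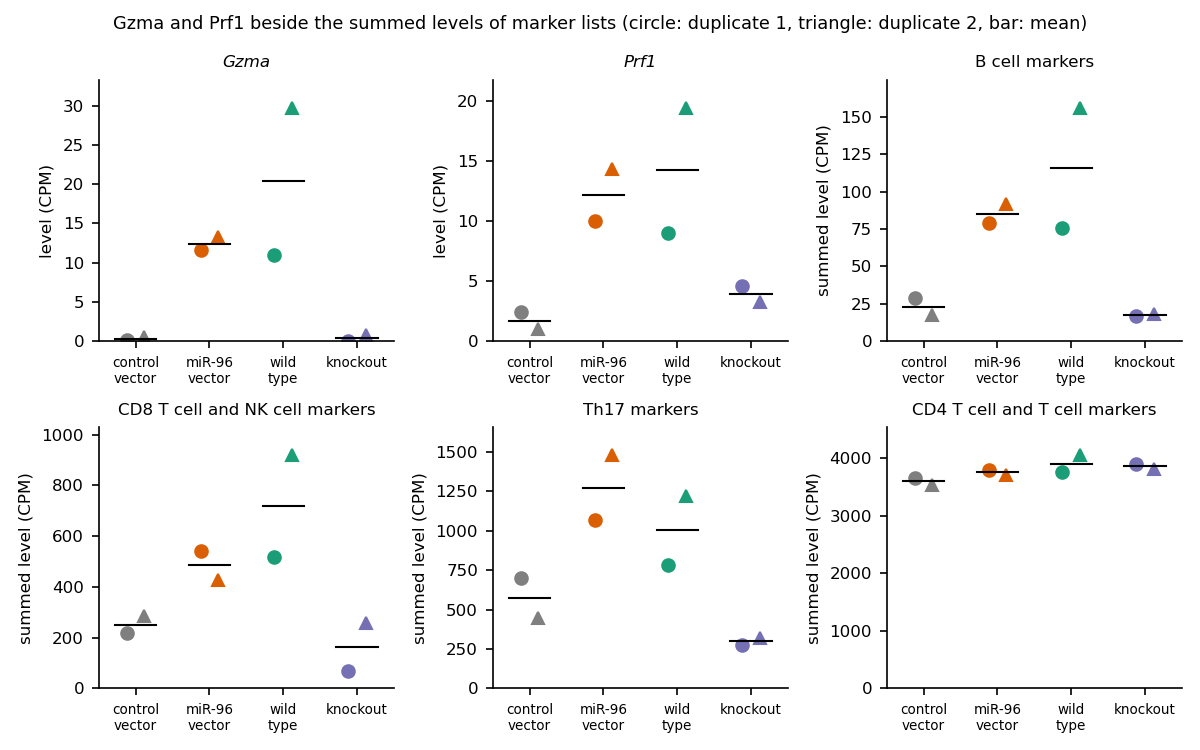
Levels of Gzma and Prf1 and summed levels of 4 marker lists in CPM (vertical axes, from 0) in the 4 groups. Circles are duplicate 1, triangles duplicate 2 and bars the group mean. The B cell, CD8 T and natural killer cell and Th17 sums are lower in the knockout than in wild type, like Gzma, while the CD4 T cell sum stays between 3540 and 4050 CPM.

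In all, 34 genes of these lists were called in the knockout and named by rule, and the sign of all 34 was kept when any library was left out. The number still called was 0 without knockout library 1, 1 (Jchain) without wild type library 2, 7 without wild type library 1 and 26 without knockout library 2. The 7 were Gzma, Prdm1, Il17a, Il17f, Maf, Jchain and Cd79a. Over all genes the count of calls in the knockout, 1544 of 11851, went to 0 of 12278, 1 of 12194, 20 of 12452 and 1975 of 12431 genes tested without the same libraries. With miR-96 the count of calls went from 13 to 0 without control vector library 1, 1 without control vector library 2 and 125 without miR-96 library 1.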

How the data were processed

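The values the authors deposited are estimated counts of each gene, not normalized, in 8 columns. A column was tied to its sample through the letter in the sample's description. Per the submitters' processing notes, mm10 was the build, and STAR 2.3.0, bcl2fastq 2.16.0.10, edgeR and Partek were used in roles not described. The counting annotation and whether strand was used are not given in the sources used here. Of 24453 lines, 27 carried spreadsheet date numbers as names and were left out (at most 0.243% of a library's counts). Values were rounded to whole counts.

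All 8 libraries were fitted with a term for group by edgeR 4.0.16 in R 4.3.3 (TMM factors, filterByExpr with a minimum count of 10 and a minimum total of 15, 11851 genes, 4 residual degrees of freedom), and the quasi-likelihood test was adjusted by Benjamini-Hochberg over these genes. CPM use TMM-scaled library sizes, computed here from the deposited estimated counts. SEs were derived from each fold change and its F value. Count ratios have exact conditional 95% intervals. A group with no count was set to a floor of 3 counts. Intervals and floors cover counting error only. Gene positions, exon lengths and 3′ untranslated regions come from GENCODE mouse release 21 (GRCm38, which mm10 also denotes). The tests recovered known changes in data simulated with the same spread for every gene. That setting does not give the power for genes that vary more between duplicates. Alternatives were RLE and upper-quartile factors, 2 other filters, a replicate block, DESeq2 1.42.0, fits to only the 4 libraries compared, each library left out, and no Y-linked genes or Xist.

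The genes and the 13 lists were chosen with earlier results of these data known. The rule named all 9 genes, every granzyme, up to 5 called genes per list and comparison by smallest p or otherwise the 2 most abundant, and the 5 genes of average log2 CPM (prior count 2) of at least 3 most correlated with Gzma and with Gzmb.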

Additional observations from a re-analysis of the deposited data

Results flagged for a closer look

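In 4 of the 8 genes tested, beside 9.03% of all genes, the log2 fold change with miR-96 and that in the knockout differed by the test of the difference itself. The difference, the first minus the second, was 10.99 for Gzma, 4.98 for Cd8a, 4.67 for Prf1 and 2.94 for Gzmc (edgeR adjusted p = 0.00582, 0.0285, 0.0146 and 0.0438). In each of them both miR-96 libraries were above both control vector libraries and both knockout libraries below both wild type libraries. Over all genes 35.9% and 69.8% did not overlap in these comparisons. The difference adds the same gaps, so this separation is not separate support. Gzma and Cd8a passed the filter on low counts only through the miR-96 and wild type libraries. The calls of Prf1, Cd8a and Gzmc were each lost when single libraries were left out, with adjusted p up to 0.0929, 0.148 and 0.2. The B cell, Th17, and CD8 T and natural killer cell marker sums and the Y-linked transcripts given above were also lower in the control vector libraries than in the miR-96 libraries, and their part in these differences was not tested. The Y-linked sum was 244 and 266 CPM in the knockout and 114 and 283 in wild type. Xist was at 0 and 144 CPM in the knockout and 1220 and 390 in wild type, and its part was not tested either.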

How the results depend on the processing

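With no filter on low counts 466 genes were called with miR-96 (4 of the 9 members), 3151 in the knockout (5 members) and 2534 for the difference. DESeq2 called 115 (2 members) with miR-96 and 1674 for the difference. With only the 4 libraries of a comparison 8 genes were called with miR-96 and 2641 in the knockout (5 members), a fit not run for the difference. Without Y-linked genes and Xist 8 genes were called with miR-96. Upper-quartile factors left 1 member called in the knockout, Prf1 having an adjusted p of 0.05. No clear pairing by duplicate number was seen (correlations of the deviations -0.22 in the vector pair and 0.1 in the genotype pair). A single correlation per pair cannot show whether duplicates of the same number were prepared together. With the replicate block 1 member was called with miR-96 and 1 in the knockout, and 1 with miR-96 under the crossed pairing, chosen after seeing the data. Of 34 list genes called in the knockout the block left 27, without Prf1, Ms4a1, Cd3e, Klrc1, Il12rb2, Bach2 and Tcf7, and upper-quartile factors left 29, without Prf1, Thy1, Ccl4, Il12rb2 and Batf. The log2 fold change of Gzmb with miR-96 was 0.03 and 0.05 in these blocked fits. Leaving out each library in turn gave 0 to 125 genes and 0 to 1 members with miR-96, 0 to 1975 and 0 to 2 in the knockout, and 23 to 1613 and 1 to 4 for the difference. Over the same fits, log2 fold changes that turned sign, all uncalled, ran with miR-96 from -0.71 to 0.87 for Gzmb, -0.60 to 0.34 for Serpinb9, -0.74 to 0.57 for Serpinb1a, -0.05 to 0.21 for Il2ra, -0.09 to 0.29 for Irf4, -0.08 to 0.05 for Unc13d, -0.10 to 0.42 for Bach2, -0.14 to 0.27 for Stxbp2, -0.16 to 0.67 for Serpinb6a, -0.17 to 7.49 for Lyz2 and -0.47 to 1.16 for Cd68. In the knockout they ran from -0.10 to 0.67 for Nkg7, -0.68 to 0.20 for Gzmb, -0.02 to 0.51 for Cd8b1 and -1.60 to 0.67 for Lyz2, and for the difference from -0.57 to 1.04 for Gzmb and -0.33 to 0.23 for Cd8b1. The cause of these changes was not tested. At 7142429 to 12452659 counts per library, Gzmk and the granzymes Gzme, Gzmf, Gzmg and Gzmm were too scarce to test.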

Other observations

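Granzyme M, of the gene Gzmm on chromosome 10, is a marker of innate killer cells. Gzmm stood at 1.58 and 0.0991 CPM in wild type, 0.135 and 0.357 in the knockout, 0.471 and 0.870 under the control vector and 0.458 and 0.497 under miR-96. The groups overlapped, in contrast to the order seen for Gzma. Cxcr6, a chemokine receptor gene whose pattern was close to that of Gzma, stood at 15 and 35.3 CPM in wild type, 2.03 and 3.93 in the knockout, 2.98 and 2.42 under the control vector and 18.2 and 17.4 under miR-96. Its groups did not overlap in either comparison.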
